A study of Mus musculus with 4 samples.

Results

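Glycolysis and hypoxia response genes were described by RNA-seq in CD4+ T cells from mouse spleen, with 4 libraries in all. The set was a fixed list of 40 gene symbols for glucose and lactate transport, glycolytic enzymes, regulators of glycolytic flux, the pentose phosphate pathway, the hypoxia-inducible factor HIF-1alpha with its hydroxylases, and targets of the hypoxia response. All 40 were found among the 21937 symbols of the deposited count table, and the list sets no threshold on a measured value. After a low filter (a mean CPM, the read count scaled to a common library size, of at least 2 over the 4 libraries) 37 remained, of 9926 genes in all. Aldoc, Pdk2 and P4ha2 did not pass it.

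The cells came from B6 mice aged 6 weeks and were stimulated with PMA, a protein kinase C activator, plus ionomycin, which lets calcium in, a pair that mimics T cell receptor signalling. No unstimulated library was analysed here. Itch and WWP2 are related ubiquitin ligases, and the series asks about their part in T cell activation. There was 1 library each of wild type, of Itchf/f Cd4cre (here Itch KO, a floxed Itch allele with Cre under the Cd4 promoter, so deletion is limited to cells that have expressed Cd4), of WWP2-/- (here WWP2 KO) and of a sample labelled DKO for Itch and WWP2, whose alleles and Cre are not given in the labels. The labels give neither the number of mice behind a library nor the length of stimulation. With 1 library per genotype no difference between libraries has a replicate check, and the intervals below are exact 95% intervals of counting error only.

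Depth was alike, from 17130747 to 17990392 reads per library. Wwp2 had 4 reads in WWP2 KO, against 1363 in wild type and 1332 in Itch KO. The sample labelled DKO had 1135, which goes against its label if it carries the Wwp2 allele of WWP2 KO. The labels do not give its allele, so it is named the library labelled DKO here. Itch had between 1914 and 2389 reads in the 4 libraries, and since a whole-gene count includes exons outside a deleted part it checks neither Itch label. The 10 markers of CD4 T cells were read in every library and summed to between 2855 and 3369 CPM. By the 2-fold rule given below, 3 of them were higher and 1 lower in the library labelled DKO than in wild type. Of all genes 12.3% and 6.34% were. Markers of other cell types summed to far less, at most 31.7 CPM for any list of another blood cell type in any library and between 62.1 and 77.5 CPM for stromal and endothelial cells. No read of Ms4a2, Fcer1a, S100a8, Fcgr1, C1qa, Pax5, Pf4 or the globin genes was counted. In the library labelled DKO the macrophage list was higher, at 20.2 CPM against 3.46 in wild type, with 8 of its 9 genes at 10 reads or fewer in every library. The dendritic cell list was at 23.2 against 8.13 and the B and plasma cell list at 11.8 against 4.44, while the mast cell and basophil list was lower, at 5.38 against 24.9. Itch KO also differed from wild type. Its NK cell list was at 31.7 CPM against 15.1, its CD8 T cell list at 15.9 against 7.44 and its dendritic cell list at 15.8 against 8.13. Its mast cell and basophil list was lower, at 10.9 against 24.9. The part of these transcripts in the results below was not tested. In bulk RNA a change in the number of cells of one kind and a change in RNA per cell cannot be told apart.

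Activated T cells take up glucose through GLUT transporters, break it down to pyruvate in the glycolytic chain, turn much of the pyruvate into lactate and export it with protons. Pyruvate dehydrogenase kinases keep pyruvate out of the mitochondrial oxidation, and the pentose phosphate pathway branches off to make NADPH and ribose. HIF-1alpha, stabilised when prolyl hydroxylases lack oxygen and also raised by T cell activation, pairs with ARNT and drives many of these genes through the core motif ACGTG or GCGTG.

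In the library labelled DKO the enzyme chain was modestly higher as a group, while single steps around lactate and pyruvate differed in opposite directions. Against wild type, 6 of the 37 members were at least 2-fold higher (Slc16a3, Tpi1, Gapdh, Eno2, Hif1a and Egln3) and 3 were at least 2-fold lower (Ldhb, Pdk1 and Vegfa). Over all genes past the filter 12.3% were higher by the same rule and 6.34% lower, so the number of members past 2-fold was near the background in both directions. The rule required a log2 ratio of 1 in either direction on TMM-scaled counts (trimmed mean of M values), with a prior count of 2, and an interval of the fold that excludes 1. The median log2 ratio of the 37 members was 0.36, beside -0.03 over all 9926 genes. Of all reads the 40 members together took 0.962% in the library labelled DKO, 0.760% in Itch KO, 0.656% in wild type and 0.630% in WWP2 KO. The roles differed in this between the library labelled DKO and wild type. A higher share was taken by enzymes (0.633% against 0.415%), the HIF factor with its hydroxylases (0.192% against 0.0905%) and hypoxia targets (0.0340% against 0.0310%). Among the hypoxia targets, Ero1l had the most reads, 3278 against 2241. A lower share was taken by transport (0.0367% against 0.0404%), flux regulators (0.0129% against 0.0142%) and the pentose phosphate pathway (0.0531% against 0.0654%). These are shares of unscaled reads, in which genes with many reads weigh most. The median log2 ratio past the filter was 0.61 for transport and 0.45 for flux regulators, each with 3 of 4 genes above 0. It was -0.14 for hypoxia targets (2 of 6 above 0) and -0.23 for the pentose phosphate pathway (1 of 4). The 3 comparisons with wild type share that 1 library.

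**Figure D1:**
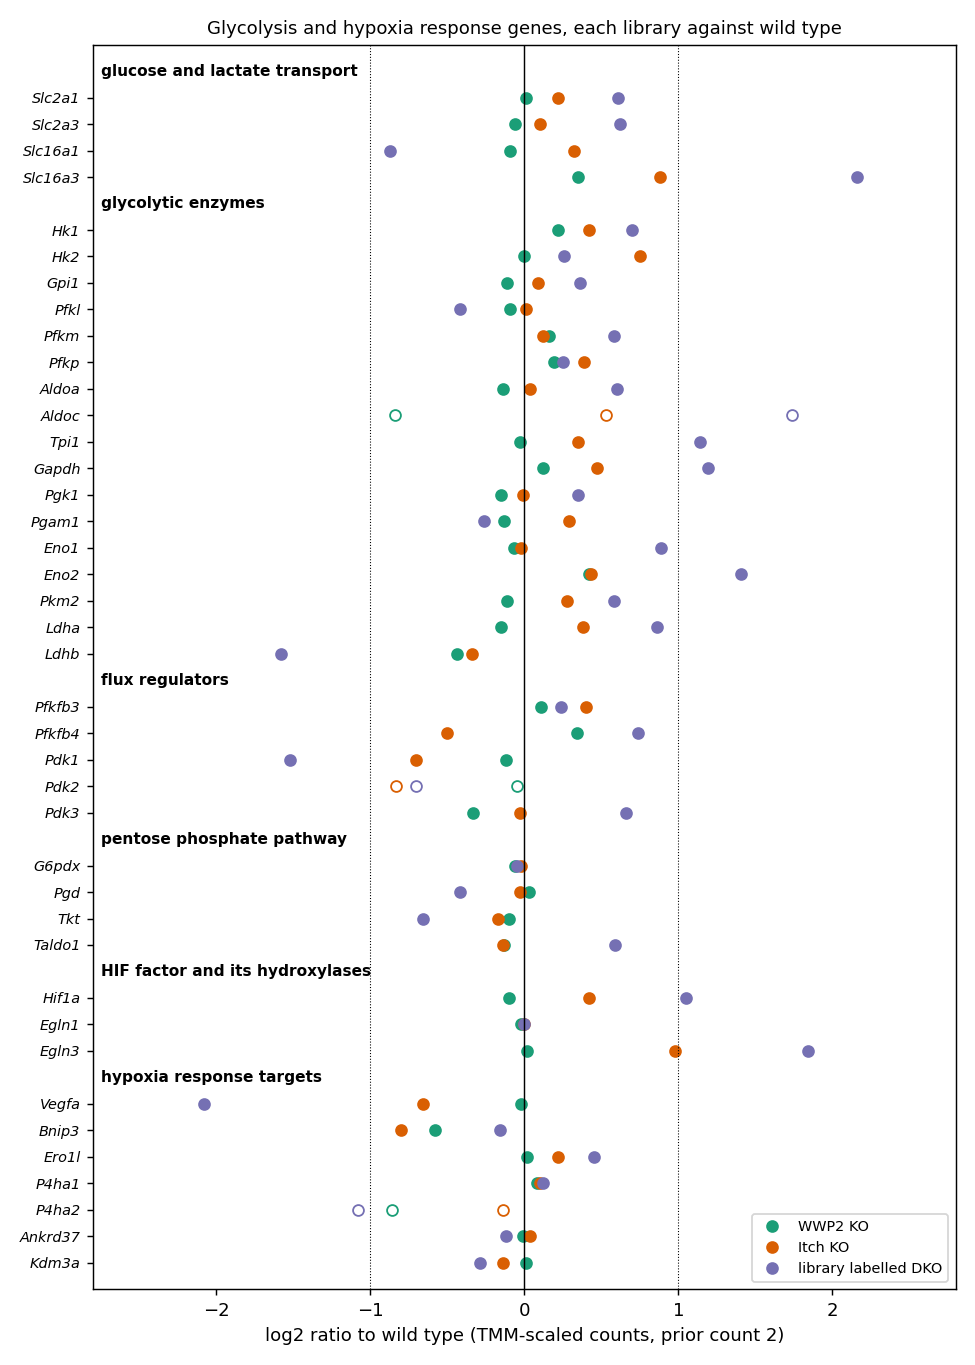
Log2 ratio to wild type (x axis, TMM-scaled counts with a prior count of 2) of each of the 40 members (y axis, grouped by role) in Itch KO, WWP2 KO and the library labelled DKO, 1 library each. Open circles are the 3 members below the low filter and dotted lines mark 2-fold. The ratios of WWP2 KO run from -0.86 for P4ha2, an open circle, to 0.42 for Eno2. Those of the library labelled DKO reach from -2.08 for Vegfa to 2.16 for Slc16a3.

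**Figure D2:**
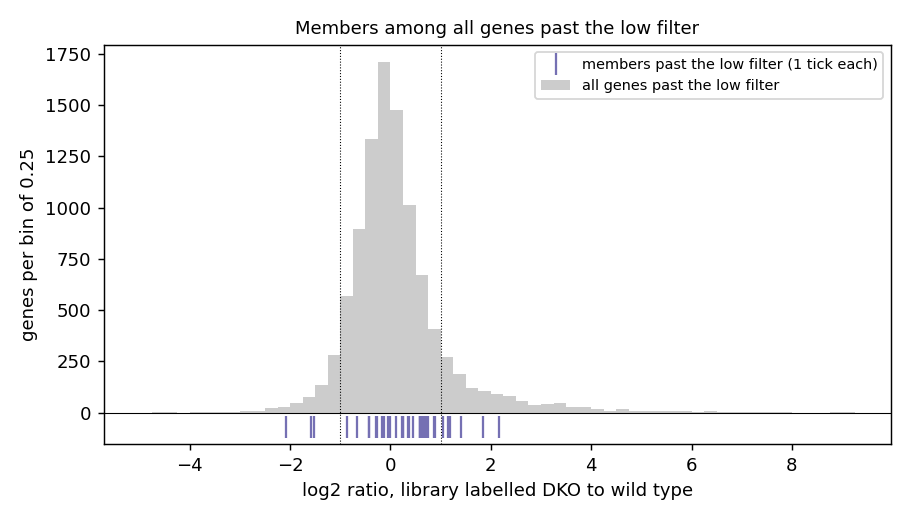
Number of genes (y axis) per bin of log2 ratio of the library labelled DKO to wild type (x axis) for the 9926 genes past the low filter, with 1 tick below the axis for each of the 37 members past it. Most ticks lie between the dotted 2-fold lines and the members' median, 0.36, is to the right of the median of all genes, -0.03.

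Promoter sequences of members past the 2-fold rule are shown because the group shares a known regulator and yet held genes of both directions: Egln3, Slc16a3 and Gapdh were higher, Pdk1, Vegfa and Ldhb lower. Each is the 250 bases before the first start listed in RefSeq for GRCm38.p6, 5′ to 3′ on the gene's strand, with the HIF core motif, ACGTG or GCGTG on either strand, in capitals. The regions are chr12:54203875-54204124 (minus strand) for Egln3, chr11:120948817-120949066 (plus) for Slc16a3, chr6:125165774-125166023 (minus) for Gapdh, chr2:71872974-71873223 (plus) for Pdk1, chr17:46032378-46032627 (minus) for Vegfa and chr6:142507958-142508207 (minus) for Ldhb. The counts themselves were made on another build, mm9.
Egln3: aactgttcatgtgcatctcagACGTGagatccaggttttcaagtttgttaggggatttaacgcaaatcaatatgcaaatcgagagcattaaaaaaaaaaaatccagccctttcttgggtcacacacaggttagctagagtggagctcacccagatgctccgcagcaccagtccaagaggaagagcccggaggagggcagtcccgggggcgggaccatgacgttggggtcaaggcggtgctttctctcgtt
Slc16a3: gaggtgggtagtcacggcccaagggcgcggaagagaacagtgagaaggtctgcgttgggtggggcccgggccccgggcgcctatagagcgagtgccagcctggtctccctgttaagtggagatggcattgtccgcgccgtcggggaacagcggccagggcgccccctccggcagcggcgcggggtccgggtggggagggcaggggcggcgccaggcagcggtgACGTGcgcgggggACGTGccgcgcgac
Gapdh: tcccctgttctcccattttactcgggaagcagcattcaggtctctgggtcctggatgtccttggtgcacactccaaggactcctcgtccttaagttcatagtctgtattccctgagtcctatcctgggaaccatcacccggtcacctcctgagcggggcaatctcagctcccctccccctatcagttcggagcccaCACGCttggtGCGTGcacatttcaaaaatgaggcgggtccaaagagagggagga
Pdk1: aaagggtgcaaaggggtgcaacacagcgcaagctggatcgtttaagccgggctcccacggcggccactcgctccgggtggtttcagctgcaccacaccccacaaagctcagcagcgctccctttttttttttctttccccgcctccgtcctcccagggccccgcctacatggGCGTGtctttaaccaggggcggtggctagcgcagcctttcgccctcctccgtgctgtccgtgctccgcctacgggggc
Vegfa: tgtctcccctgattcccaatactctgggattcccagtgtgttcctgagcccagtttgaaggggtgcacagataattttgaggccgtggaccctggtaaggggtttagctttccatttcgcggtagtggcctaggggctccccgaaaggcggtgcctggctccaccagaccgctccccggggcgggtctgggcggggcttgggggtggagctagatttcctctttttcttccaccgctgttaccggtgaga
Ldhb: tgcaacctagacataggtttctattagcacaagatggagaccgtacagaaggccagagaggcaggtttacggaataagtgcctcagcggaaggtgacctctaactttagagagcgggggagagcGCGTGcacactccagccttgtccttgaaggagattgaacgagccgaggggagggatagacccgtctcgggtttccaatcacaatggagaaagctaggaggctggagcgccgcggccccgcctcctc

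Egln3 and Pdk1, which differed in opposite directions, each held 1 core motif in this window, as did Ldhb. Slc16a3 and Gapdh held 2 each and Vegfa 0, which says only that these letters are not in that window. RefSeq promoters were matched for 39 of the 40 members, all but Slc2a3. The motif, with overlapping matches counted once, occurred in 32 of these 39 (82.1%), against 59.7% of 7185 promoters of genes past the low filter and 38.6% of all 27025 promoters of this length. Members' windows had a median GC content of 62.4%, against 60.0% and 52.0%. The E-box CACGTG, which contains the core motif on both strands, was in 6 of the 39 (15.4%), against 9.16% and 6.05%. By direction, the motif was in 4 of the 6 members at least 2-fold higher and in 2 of the 3 at least 2-fold lower. Of the higher members whose sequences are not shown, Tpi1 and Eno2 held 0 and Hif1a held 2. Vegfa and Pdk1 each had 2 starts listed, and which start these cells used was not tested.

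Sugar import genes were higher without reaching 2-fold. Slc2a1, which encodes the main glucose transporter of activated T cells, GLUT1, had 1523, 1779, 1520 and 2495 reads. These values, like all that follow, stand in the order wild type, Itch KO, WWP2 KO, library labelled DKO. The last was at 1.53-fold the wild-type level (1.43 to 1.63). Slc2a3, for the high-affinity transporter GLUT3, had 559, 598, 530 and 919 reads and also stood at 1.53-fold (1.38 to 1.71). The 2 genes kept nearly the same ratio to each other in every library, with 0.302, 0.277, 0.287 and 0.303 reads of Slc2a3 per read of Slc2a1, each per kilobase of exon.

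The lactate transporters diverged. Slc16a3, which encodes the lactate exporter MCT4 of glycolytic cells, had 56, 105, 71 and 275 reads. With a 4.58-fold higher level in the library labelled DKO (3.43 to 6.22) it was the member with the highest ratio. Itch KO lay between, at 1.87-fold (1.34 to 2.64). Slc16a1, for MCT1, which carries lactate and other monocarboxylates in either direction, had 4976, 6231, 4610 and 2908 reads. Its level was 1.25-fold the wild type in Itch KO (1.21 to 1.30) and 0.545-fold in the library labelled DKO (0.521 to 0.571), short of the 2-fold rule. Per kilobase, Slc16a3 made up 1.11%, 1.65%, 1.51% and 8.60% of the sum of both transporters. MCT1 transcripts thus remained the larger part in all 4 libraries. This share is free of the scaling between libraries.

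The 17 glycolytic enzyme genes mostly leaned upwards. Of the 16 past the filter, 13 had a log2 ratio above 0 in the library labelled DKO, where 4786 of all 9926 genes did. Their median was 0.58, beside -0.03 over all genes. By the 2-fold rule 3 were higher and 1 lower, where 12.3% and 6.34% of all genes were. The same median was 0.29 in Itch KO and -0.08 in WWP2 KO.

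Among the first steps, hexokinase traps glucose in the cell as its phosphate. Hk1 had 2125, 2845, 2455 and 3697 reads, at 1.62-fold in the library labelled DKO (1.54 to 1.71). Hk2, the inducible form, had 1210, 2037, 1193 and 1553 reads and was highest in Itch KO, at 1.68-fold (1.57 to 1.81), against 1.20-fold in the library labelled DKO (1.11 to 1.29). Gpi1, the isomerase that follows, went from 6382 reads in wild type to 8811 in the library labelled DKO, 1.29-fold (1.25 to 1.33).

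Phosphofructokinase, the committed step, is built from 3 isoforms. Pfkp, the platelet form, had 3550, 4656, 4016 and 4511 reads, and Pfkl, the liver form, had 1857, 1869, 1723 and 1491. Pfkm, the muscle form, had between 66 and 107. Per kilobase, Pfkp made up 61.4%, 67.4%, 65.8% and 70.7% of the family and Pfkl 37.0%, 31.2%, 32.5% and 26.9%. The highest Pfkp share and the lowest Pfkl share were both in the library labelled DKO.

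In the middle of the chain Tpi1 and Gapdh passed the 2-fold rule and Aldoa did not. Aldoa, the aldolase of most tissues, had 12284, 12593, 11020 and 20021 reads, at 1.52-fold in the library labelled DKO (1.49 to 1.56). Its paralog Aldoc had 7, 11, 3 and 30 reads. Tpi1, the triose phosphate isomerase, had 656, 838, 634 and 1549 reads and was 2.20-fold higher than wild type in the library labelled DKO (2.01 to 2.42). Gapdh, the dehydrogenase at the start of the pay-off phase, had 1461, 2019, 1575 and 3564 reads and was 2.28-fold higher (2.14 to 2.42). In Itch KO these 2 were at 1.28-fold (1.15 to 1.42) and 1.38-fold (1.29 to 1.48). Each was thus higher in both libraries whose label includes Itch deletion than in the other 2, and highest in the library labelled DKO.

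The later steps differed among themselves. Pgk1, phosphoglycerate kinase, had 8583, 8504, 7654 and 11702 reads, at 1.27-fold in the library labelled DKO (1.24 to 1.31). Pgam1, the mutase after it, had 4625, 5648, 4176 and 4151, at 1.22-fold in Itch KO (1.17 to 1.27) and 0.837-fold in the library labelled DKO (0.803 to 0.873). The enolase gene Eno2, known from neurons, had 47, 64, 63 and 137 reads, 2.72-fold higher in the library labelled DKO (1.94 to 3.87). Eno1, the common enolase, had 97, 96, 91 and 195 reads, 1.88-fold (1.46 to 2.42) and not past the rule. Pkm2, the symbol under which the table lists the pyruvate kinase gene Pkm, had the most reads of any member in wild type, with 17641, 21474, 16126 and 28248, at 1.49-fold (1.47 to 1.52). A whole-gene count does not separate its M1 and M2 splice forms.

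The lactate dehydrogenase subunits differed in opposite directions. Ldha, whose subunit favours lactate formation, had 12334, 16097, 11018 and 24072 reads, at 1.30-fold in Itch KO (1.27 to 1.34) and 1.82-fold in the library labelled DKO (1.78 to 1.86). Ldhb, whose subunit favours the reverse reaction, had 157, 124, 114 and 55 reads and was 3.06-fold lower in the library labelled DKO (2.24 to 4.24). Reads of Ldha per read of Ldhb, each per kilobase, numbered 54.1 (46.2 to 63.7), 89.3 (74.9 to 107), 66.5 (55.3 to 80.7) and 301 (231 to 399.9). Ldha was the dominant form in all 4.

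**Figure D3:**
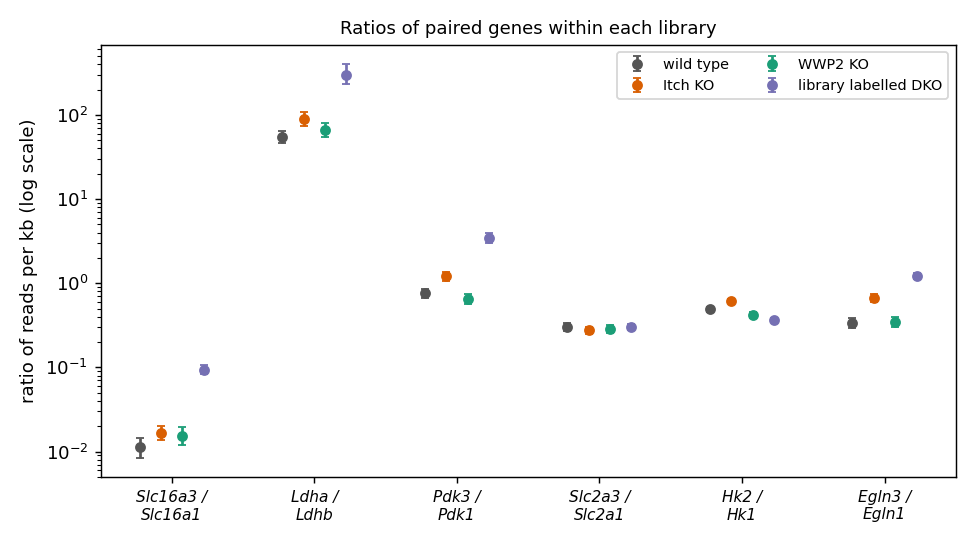
Ratio of reads per kilobase of exon (y axis, log scale) for 6 pairs of related genes (x axis) within each of the 4 libraries, with exact 95% counting intervals. Slc16a3 to Slc16a1, Ldha to Ldhb, Pdk3 to Pdk1 and Egln3 to Egln1 are highest in the library labelled DKO, at 0.0941, 301, 3.46 and 1.22, while Slc2a3 to Slc2a1 stays between 0.277 and 0.303.

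Levels across enzymes were compared per kilobase of exon and scaled library size (RPKM). In wild type Pkm2 stood at 391, Ldha at 375, Aldoa at 276 and Pgk1 at 271, whereas Gapdh stood at 56.4, Tpi1 at 21.4 and Eno1 at 2.20. Several of these genes have near-identical copies. Of the 50-base words in the transcripts of Eno1, 49.5% also occurred in transcripts of other genes, and the share was 58.4% for Gapdh, 68.0% for Pgk1, 41.5% for Pgam1, 59.1% for Bnip3, 23.7% for Pkm2, 24.5% for Gpi1 and 21.0% for Ldhb. Reads from such stretches can be lost or split in counting, so the absolute levels of these genes are uncertain. The part of this in their levels was not tested. For Slc16a3, Egln3 and Pdk1 the share was 0.

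Among the flux regulators, the kinases that inhibit pyruvate dehydrogenase exchanged places. Pdk1 had 1137, 698, 1036 and 423 reads, lower in both libraries whose label includes Itch deletion. It stood at 0.614-fold in Itch KO (0.558 to 0.675) and was 2.88-fold lower in the library labelled DKO (2.57 to 3.23). Pdk3 had 351, 345, 276 and 597 reads, at 1.59-fold in the library labelled DKO (1.39 to 1.82). Pdk2 had 21, 11, 20 and 13. Per kilobase, Pdk1 made up 55.6%, 44.5%, 58.9% and 22.1% of the 3 kinases and Pdk3 42.1%, 53.9%, 38.5% and 76.4%, so that the larger part was Pdk1 in wild type and WWP2 KO and Pdk3 in the other 2 libraries.

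Pfkfb3 and Pfkfb4 make fructose 2,6-bisphosphate, the activator of phosphofructokinase. Pfkfb3 had 935, 1235, 997 and 1184 reads, highest in Itch KO at 1.32-fold (1.21 to 1.44). Pfkfb4 had 53, 37, 67 and 96 reads, 1.69-fold in the library labelled DKO (1.20 to 2.41).

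Pentose phosphate genes did not follow the enzyme chain. None of the 4 passed the 2-fold rule in any library against wild type, and their median log2 ratio in the library labelled DKO was -0.23. G6pdx, the entry enzyme that makes NADPH, had 1113, 1098, 1056 and 1151 reads, at 0.965-fold (0.888 to 1.05). Pgd, the second NADPH-making step, was at 0.748-fold (0.704 to 0.796). In the non-oxidative branch Tkt had 6965, 6183, 6407 and 4722 reads, at 0.632-fold (0.609 to 0.656), while Taldo1 had 1128, 1027, 1016 and 1823, at 1.51-fold (1.40 to 1.63). The 2 enzymes of that branch thus differed in direction in the same library.

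Of the HIF genes, Hif1a and Egln3 were both higher in Itch KO and higher again in the library labelled DKO. Hif1a, which encodes the oxygen-regulated subunit, had 14480, 19349, 13332 and 32112 reads. It was 1.34-fold the wild type in Itch KO (1.31 to 1.36), 0.931-fold in WWP2 KO (0.909 to 0.953) and 2.07-fold higher in the library labelled DKO (2.03 to 2.11). Egln3, which encodes the hydroxylase PHD3 and is itself a classical HIF target, had 296, 588, 296 and 1145 reads. That made it 1.99-fold in Itch KO (1.72 to 2.29), just under the rule with a log2 ratio of 0.98, and 3.61-fold higher in the library labelled DKO (3.17 to 4.11). With DESeq2 size factors in place of TMM the log2 ratio in Itch KO reached 1 and passed. Egln1, for PHD2, the main oxygen sensor, had 1183, 1185, 1153 and 1267 reads, at 0.999-fold in the library labelled DKO (0.922 to 1.08).

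The hypoxia response targets differed in direction in the library labelled DKO, with Ero1l higher, as Egln3 was, and Vegfa and Kdm3a lower. Vegfa, the vascular growth factor gene, had 354, 223, 345 and 88 reads. It was at 0.630-fold in Itch KO (0.530 to 0.747) and 4.31-fold lower in the library labelled DKO (3.41 to 5.51), the lowest ratio of the 37 members. Ero1l, an oxidase of protein folding, had 2241, 2604, 2241 and 3278 reads, at 1.36-fold (1.29 to 1.44). The mitophagy gene Bnip3 had 87, 49, 57 and 83 reads, lowest in Itch KO at 0.563-fold (0.388 to 0.808). The collagen prolyl hydroxylase gene P4ha1 was at 1.09-fold (0.988 to 1.20), Ankrd37 at 0.918-fold (0.632 to 1.33) and the histone demethylase gene Kdm3a at 0.818-fold (0.766 to 0.874) in the library labelled DKO. P4ha2 had 20, 18, 10 and 9 reads. Of the 6 targets past the filter 0 were at least 2-fold higher and 1 lower, where 12.3% and 6.34% of all genes were. Their median was -0.14.

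**Figure D4:**
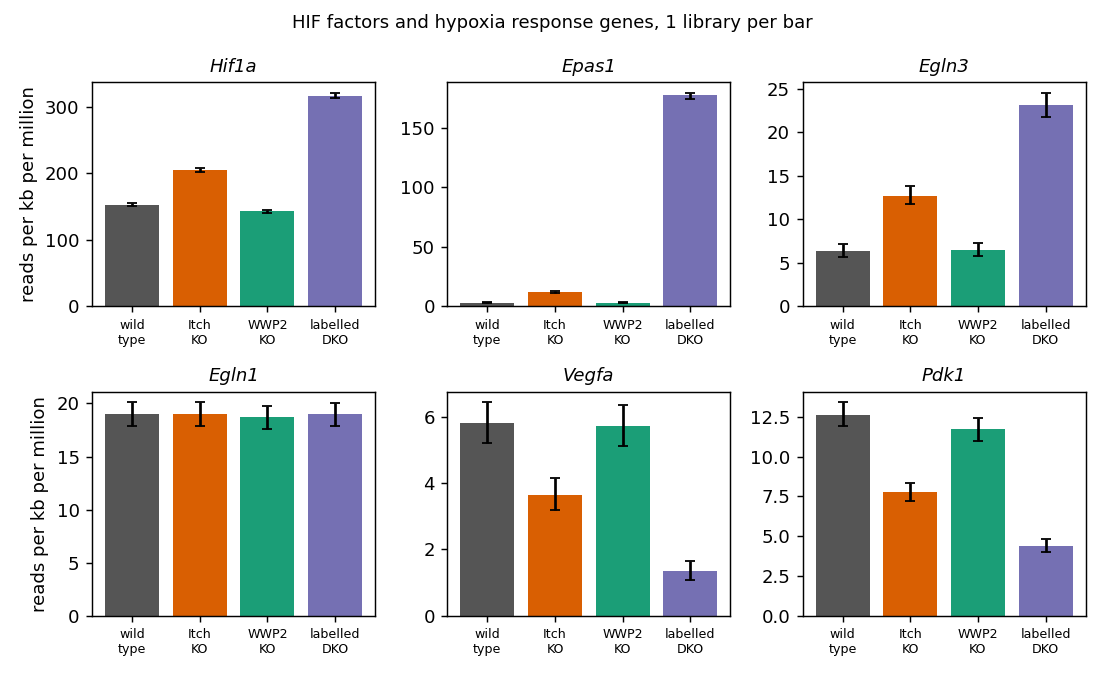
Level in RPKM (y axis, from 0, a scale of its own in each panel) of Hif1a, Epas1, Egln3, Egln1, Vegfa and Pdk1 in the 4 libraries (x axis), with exact 95% Poisson intervals. Hif1a, Epas1 and Egln3 are highest and Vegfa and Pdk1 lowest in the library labelled DKO, and Egln1 is level, between 18.7 and 19.0.

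The other genes of the pathway, 115 symbols in 6 written lists, were read in the same way. Of the 90 past the filter, 12 were at least 2-fold higher than wild type and 4 lower in the library labelled DKO, with a median of 0.10. Set beside the 12.3% and 6.34% of all genes, these counts were near the background. Among 16 other HIF pathway regulators 2 were higher and 0 lower. Epas1, which encodes HIF-2alpha, the other main oxygen-regulated subunit, had 298, 1134, 279 and 18116 reads, 3.80-fold higher in Itch KO and 56.7-fold higher in the library labelled DKO (50.6 to 63.8). Arnt2, a partner subunit related to ARNT, had 18, 72, 13 and 1315 reads and was 68.2-fold higher (43.0 to 115). Its pass of the low filter rested largely on the reads of the library labelled DKO. Per kilobase, Epas1 reached 0.0203, 0.0579, 0.0207 and 0.557 reads per read of Hif1a. Hif1a remained the more abundant of both in every library.

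Of the 32 other hypoxia response targets past the filter, 5 were higher and 4 lower, where 12.3% and 6.34% of all genes were. This list too was divided. The 2 highest were Anxa2, an annexin gene, with 233, 1052, 230 and 3631 reads, 14.5-fold higher (12.7 to 16.7), and the haem oxygenase gene Hmox1, with 139, 215, 89 and 965 reads, 6.48-fold (5.42 to 7.79). At the low end Fam162a had 939, 677, 824 and 427 reads, 2.36-fold lower (2.10 to 2.65), and the adenylate kinase gene Ak4 had 55, 84, 50 and 26, 2.27-fold lower (1.40 to 3.77). Of 7 other transporters and their partners 5 were higher and 0 lower, where 12.3% and 6.34% of all genes were. Among the 5 was a gene that passed the low filter only through the library labelled DKO, at 4.79 CPM against 1.52 to 1.79. Highest was the lysosomal hexose transporter gene Slc2a6, with 23, 148, 27 and 367 reads (14.9-fold, 9.77 to 23.8). Next came Emb, a chaperone of monocarboxylate transporters, with 1679, 2086, 1500 and 8047 (4.47-fold, 4.24 to 4.72). Neither the 12 genes of pyruvate entry into mitochondria (median -0.21), the 8 other pentose phosphate genes (-0.10) nor the 16 other glycolysis and glycogen genes (0.13) had a member past the rule.

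In Itch KO against wild type, which asks what loss of Itch alone does, 0 of the 37 members were at least 2-fold higher or lower, where 4.89% of all genes were higher and 0.846% lower. The highest ratios were those of Egln3, Slc16a3 and Hk2, given above, and the lowest those of Bnip3, Pdk1 and Vegfa. The median log2 ratio was 0.10, beside -0.02 over all genes. At 1.5-fold 3 members were higher, where 8.79% of all genes were, and 3 lower, where 4.39% were. The same threshold gave 15 members higher and 5 lower in the library labelled DKO, where 20.5% and 17.5% of all genes were called.

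WWP2 KO differed from wild type least. Here too 0 of 37 members passed in either direction, where 0.282% of all genes were higher and 0.161% lower, and the members' log2 ratios ran from -0.58 for Bnip3 to 0.42 for Eno2, with a median of -0.03 beside -0.01. Bnip3 had 57 reads against 87, and Eno2 63 against 47, so both extremes rested on few reads.

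Set against Itch KO, the library labelled DKO had 2 members at least 2-fold higher, Slc16a3 (2.44-fold) and Pfkfb4 (2.42-fold, from 37 to 96 reads), where 9.18% of all genes were higher. With a minimum of 10 CPM in place of 2, neither was tested and 0 members were higher, where 5.71% of all genes were. There were 3 lower, where 5.16% of all genes were: Slc16a1 at 0.436-fold, Ldhb at 0.414-fold and Vegfa at 0.368-fold. This comparison and the one with wild type share the library labelled DKO and are not independent.

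The labels allow 1 contrast with 2 libraries on each side, Itch KO and the library labelled DKO against wild type and WWP2 KO. Both libraries of the first side were above both of the second for 18 of the 37 members, where 24.1% of all genes did so, and below for 5, where 27.0% did. Among the 18 were Slc2a1, Slc2a3, Slc16a3, Hk1, Hk2, Tpi1, Gapdh, Pkm2, Ldha, Hif1a and Egln3, and the 5 were Pdk1, Pgd, Tkt, Vegfa and Kdm3a. In edgeR's quasi-likelihood test with Benjamini-Hochberg adjustment over 11197 genes, 0 of the 40 members passed a threshold of 0.05 in either direction, where 0.00893% of all genes were called higher and 0% lower. Without adjustment 9 members were higher at p under 0.05, where 9.74% of all genes were, and 1 lower, where 3.85% were. Egln3 came nearest, with a log2 difference of 1.49 (SE 0.33) and an adjusted p of 0.250 by edgeR, followed by others such as Ldha at 0.73 (SE 0.23, adjusted p 0.302) and, lower, Pdk1 at -0.99 (SE 0.30, adjusted p 0.298). DESeq2 called 1 member, Egln3, with an adjusted p of 0.00203, and 5.32% of all genes with an adjusted p higher and 0.824% lower. With the WWP2 label as a term, which compares libraries within that label, edgeR called 0 members (smallest adjusted p 0.0665, for Egln3) and 1.44% of all genes higher and 0.125% lower. That term follows the labels, and the Wwp2 reads of the library labelled DKO leave its label in doubt. The 2 libraries of a side differ in their WWP2 label and are not replicates of 1 genotype. Without Itch KO the edgeR test called 20 of the 40 members higher and 8 lower, where 28.6% and 24.9% of all genes were called. Without the library labelled DKO it called 7 and 2, where 8.57% and 5.03% of all genes were. It called 0 members without wild type, where 0.0171% of all genes were higher and 0% lower, and 0 without WWP2 KO, where 0.00859% and 0% were.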

How the data were processed

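The authors deposited 1 table of raw read counts per gene symbol for 4 libraries; they were used unchanged. Per the submitters' processing notes the tools were TopHat 1.4.1, Bowtie 1.0.0 and HTSeq 0.7.1, with build mm9. Annotation, strand setting and read length were not stated in any source at hand, so overlapping or antisense genes can share reads. Counts were scaled with TMM factors from all 4 libraries (0.983 to 1.03) in edgeR 4.0.16, R 4.3.3. Folds are of scaled counts without a prior count, and intervals are conditional binomial. Reads carry no molecular identifiers, so intervals cover counting error only. The contrast by Itch label used edgeR's quasi-likelihood test after filterByExpr (2 residual degrees of freedom), with DESeq2 1.42.0 as an alternative. Levels per kilobase used exon lengths of protein-coding transcripts in GENCODE vM21 (GRCm38), which approximate the mm9 models. The edgeR test was also run on simulated counts. Other steps used pandas 2.3.3, scipy 1.17.1 and numpy 2.4.6 under Python 3.11.15, and figures matplotlib 3.10.9. Genes named are all members, Itch and Wwp2, and, per list of other pathway genes, the 2 highest and 2 lowest ratios past the 2-fold rule in the library labelled DKO; the pairs of genes set in ratio were chosen after their values were seen. Members and lists were chosen with earlier results of these data known. Alternatives tried were the scaling, the low filter, the prior count, the fold threshold, the WWP2 term and leaving out each library.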

Additional observations from a re-analysis of the deposited data

Results flagged for a closer look

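For 3 members the Itch label went with opposite directions in the 2 pairs of libraries that share no library, each with a counting interval that excludes 1. Slc16a1 had a log2 ratio of 0.32 in Itch KO over wild type and -0.78 in the library labelled DKO over WWP2 KO, a difference of -1.10. Pgam1 had 0.29 and -0.13, a difference of -0.41, and Taldo1 had -0.14 and 0.73, a difference of 0.86. Such opposite directions were found for 1089 of the 9926 genes past the low filter (11.0%). The number of members, 3 of 37, was thus near the background. The library labelled DKO and WWP2 KO also differ in Wwp2 reads, as given above, which cannot be told apart from the Itch label. With 1 library per genotype these differences were not tested.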

How the results depend on the processing

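Scaling by DESeq2 size factors or by total count alone, or a prior count of 0.5, reversed no called ratio against wild type. Uncalled ratios near 0 could change sign: under total count alone G6pdx went from -0.05 to 0.02 in the library labelled DKO and Ankrd37 from -0.01 to 0.02 in WWP2 KO. DESeq2 size factors added 1 call, Egln3 in Itch KO, for 1 member higher there in place of 0. Total count alone raises all log2 ratios of the library labelled DKO by 0.07. At 1.5-fold the counts in that library were 15 higher and 5 lower, where 20.5% and 17.5% of all genes were called. In Itch KO they were 3 and 3, where 8.79% and 4.39% were. Against Itch KO a minimum of 10 CPM left 0 higher in the library labelled DKO, where 5.71% of all genes were. In the test of the Itch label DESeq2 gave 1 member higher, and leaving out each library in turn gave 0 to 20 higher and 0 to 8 lower; fits with 1 library on a side assume that it varies like the others. No paired analysis was possible because the labels hold a single replicate number, which cannot serve as a block. The fit with the WWP2 label as a term also called 0 members. Members under about 100 reads, such as Aldoc, Pdk2, P4ha2, Pfkfb4 and Bnip3, have wide intervals. Some called members also rest on few reads. Slc16a3 and Eno2 had 56 and 47 in wild type, and Ldhb and Vegfa 55 and 88 in the library labelled DKO. Slc16a3, Eno2 and Ldhb had a mean CPM of 7.06, 4.36 and 6.45, so a minimum of 10 CPM removes their calls against wild type.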
